A study of Homo sapiens with 6 samples.

Results

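The BCL2 family genes studied here are 10 of a family whose products decide whether the outer membrane of mitochondria is opened during cell death. These 10 are the BH3-only genes BMF, BCL2L11, BBC3 and PMAIP1, the survival genes BCL2, BCL2L1, BCL2L2 and MCL1, and the effector genes BAX and BAK1. They were taken by gene symbol from an expression table of 60676 genes, where all 10 were found, and all 10 passed the filter on low counts that left 15510 genes for testing. RNA was sequenced from NCI-H226, an established human line labelled as mesothelioma of the pleura, in 3 libraries of cells given the vehicle DMSO (replicates 1, 2 and 3) and 3 of cells given 500 nM HC278 (replicates 1, 2 and 6), each for 24 h. Both groups grew in DMEM with 10% FBS and carry no other agent or engineered allele in the labels. The series title names HC278 a degrader of TEAD, the DNA-binding partner of YAP1, so the comparison asks how these transcripts differ when that factor is targeted. The labels also write the compound as HC31278 or HC31278A, and these were taken as 1 compound. Whether the replicates came from separate cultures is not stated in the labels, and p-values therefore cover the spread among these 6 libraries alone, which could be technical.

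Proteins of this family meet at the mitochondrial surface. Effectors form pores that let cytochrome c out, survival members hold effectors and BH3-only proteins in check, and BH3-only proteins, which carry only the short BH3 helix, bind into a groove of the survival members or act on the effectors directly. Cytochrome c then assembles APAF1 and caspase-9 into the apoptosome, which sets off the executioner caspases. Many steps of this system act on protein rather than on transcripts, and protein was not analysed here.

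Totals ran from 30486316 to 33181814 counts per library. Levels below are counts over the TMM-scaled library size in CPM, the usual depth-scaled unit, and 3 counts correspond to 0.0877 to 0.105 CPM. HC278 replicate 6 and DMSO replicate 3 stood apart along gene length: across tested genes, the deviation of a library from the mean of all libraries had a rank correlation with length of 0.43 and 0.35 there, against -0.42 and -0.37 in HC278 replicates 1 and 2, and -0.17 and -0.06 in the first and second DMSO library. Of the known YAP and TEAD targets, ANKRD1 fell from 312 ± 10.6 to 78.2 ± 7.02 CPM and CCN2 from 54.9 ± 0.674 to 20.3 ± 7.09 CPM (SD, n = 3; edgeR adjusted p = 0.00393 and 0.0234). Mesothelial markers were present, with MSLN at 92.5 CPM and WT1 at 23.8 CPM in DMSO, though KRT5 was at 0 counts in all 3 DMSO libraries. Of 10 tested mesothelial markers, CALB2, UPK3B and ITLN1 passed as higher (log2 1.35, 1.05 and 1.36, adjusted p = 0.0336, 0.0165 and 0.0179). Of all tested genes, 5.4% passed as higher. On the log2 scale 8 of these markers were above 0 and 2 below. The 2 were PDPN at -0.29 and WT1 at -0.27, which did not pass (adjusted p = 0.154 and 0.373). The 11 mesothelial markers summed to 5695 to 7923 CPM in DMSO and 5801 to 11153 CPM in HC278. Of the 5 immune markers, CD68 and CD14 rose and the list summed to 37.7 to 38.9 CPM in DMSO and 62.5 to 78.0 CPM in HC278, while CD3E had no count in any library, PTPRC averaged 0.0607 and 0.201 CPM, and MS4A1 had no count in DMSO. Their part in the results below was not tested. The 4 fibroblast markers summed to at most 0.25 CPM and the 4 endothelial ones to at most 2.19 CPM in any library. In such bulk RNA, fewer cells that express a gene and less of its RNA per cell cannot be told apart.

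Of the 10 family genes, only BMF passed the test across all genes, and it was higher under HC278. BMF encodes a BH3-only protein known to be held on the myosin V motor and released when cells detach or the actin skeleton is disturbed. The remaining 9 did not pass: 4 were above 0 and 5 below 0 on the log2 scale, between -0.50 and 0.32. The median log2 fold change of the 10 was 0.04, against 0.05 over all tested genes. Of all tested genes 10.8% passed, 5.4% as higher and 5.38% as lower, so 1 higher gene of 10 is near what the whole table shows.

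Because BMF is the gene that passed, the 250 bases before the first of its annotated starts are printed here, 5′ to 3′ on the gene's minus strand (RefSeq, GRCh38.p14, chr15:40108880-40109129), with the letters CATTC in capitals. Its bases nearest the start lie within the gene as the expression table draws it.
BMF upstream window: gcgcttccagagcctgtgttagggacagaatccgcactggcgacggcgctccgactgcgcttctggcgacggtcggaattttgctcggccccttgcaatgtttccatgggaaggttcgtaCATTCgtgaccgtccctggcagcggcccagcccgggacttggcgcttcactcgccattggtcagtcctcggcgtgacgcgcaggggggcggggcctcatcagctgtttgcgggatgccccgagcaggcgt

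RefSeq windows were matched for 8 of the 10 genes, giving 10 windows since BMF and BCL2L1 have 2 each. GGAATG, the letters best known for TEAD binding (CATTCC on the other strand), was in none of these 10 windows on either strand, and in 11.9% of 35116 windows of the same length. The shorter run CATTC, contained in CATTCC and searched on both strands, was in 2 of the 10, the printed BMF window (its first base 130 bases before the start) and 1 window of BCL2L1, and in 31% of all windows. TGTTTAC, a core sequence of FOXO factors searched on both strands, was in the window of BCL2L11 alone among the 10 and in 2.98% of all windows. CATTC and TGTTTAC were added after BMF was known to have changed, and such matches describe letters, not sites in use.

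BMF was the rarest of the 10 genes in DMSO. The DMSO libraries held 10, 11 and 11 counts of it, and those of HC278 (replicates 1, 2 and 6) 44, 72 and 111 counts. Every HC278 library was above every DMSO library, as in 17% of tested genes. The exact Poisson 95% interval of the highest DMSO count ends at 19.7 and that of the lowest HC278 count starts at 32.0. In CPM it went from 0.323 ± 0.00973 to 2.36 ± 0.853 (SD, n = 3), a log2 fold change of 2.85 (SE 0.34, 95% interval 2.03 to 3.67, adjusted p = 0.00758), or 7.22-fold. This rise ranked 14 among the 837 genes that passed as higher. The DMSO libraries sat close to the filter's limit of 0.307 CPM, which is set on library totals without TMM scaling. On that scale DMSO replicate 1, with 10 counts of 32617373, was just below the limit. The DMSO libraries alone would thus not have passed the filter, whereas the HC278 libraries alone would have. Without the filter BMF still passed (edgeR adjusted p = 0.0032). The gene (ENSG00000104081) lies on chromosome 15 at 40087890 to 40108892 on the minus strand of hg38, and the only other gene drawn over it, BMF-AS1 on the opposite strand, had no count. Its HC278 libraries differed among themselves, with HC278 replicate 6 above HC278 replicate 1 by 1.04 on the log2 scale. Without HC278 replicate 6 the difference was 2.55 (adjusted p = 0.00183), and with the trend along gene length taken out it was 2.85 (adjusted p = 0.00267). The call was lost without DMSO replicate 1, 2 or 3 (adjusted p = 0.0594, 0.0654 and 0.0564), with the log2 fold change between 2.82 and 2.86. In those 3 fits 0.4%, 0% and 0.615% of all genes passed as higher.

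**Figure D1:**
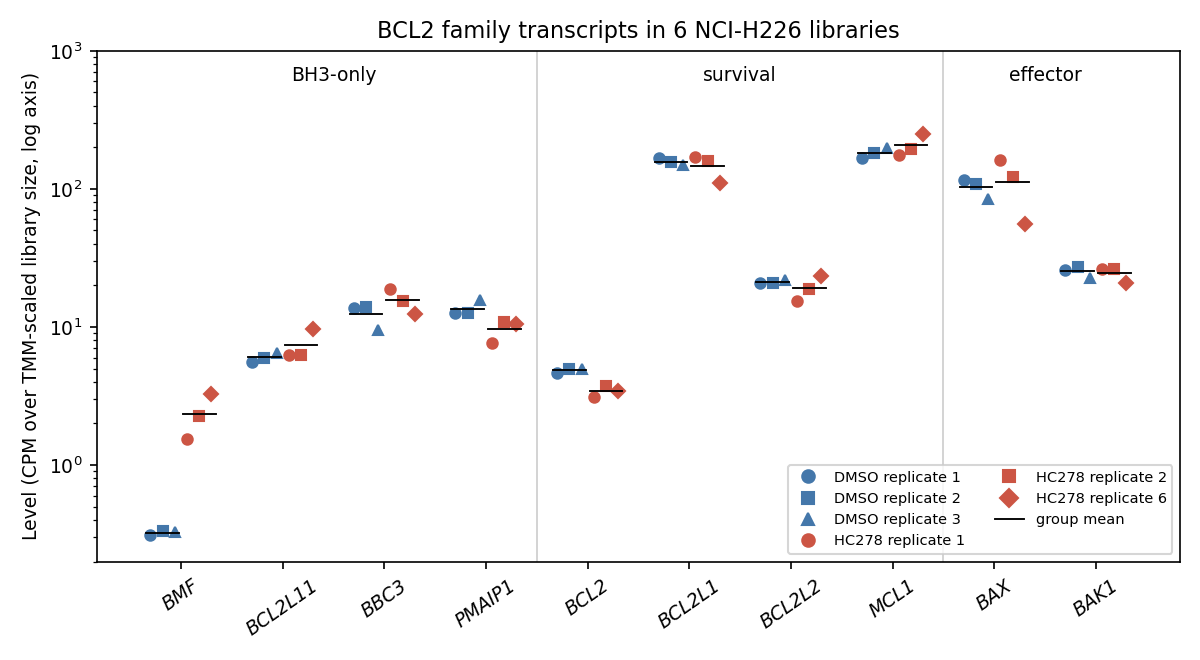
Level of each BCL2 family gene (vertical log axis, CPM over the TMM-scaled library size) in the 3 DMSO libraries (blue) and the 3 HC278 libraries (red), with symbols for replicates, black lines for group means and genes ordered by role. BMF lies between 0.313 and 0.332 CPM in DMSO and between 1.54 and 3.24 CPM in HC278. The groups of PMAIP1 and BCL2 do not overlap either, and those of the remaining genes do. Of all tested genes, 34.6% have groups that do not overlap.

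The other BH3-only genes did not pass. BCL2L11 encodes BIM, which binds all survival members. It had 5.60, 5.95 and 6.47 CPM in DMSO and 6.28, 6.31 and 9.65 CPM in HC278 replicates 1, 2 and 6, so only replicate 6 was above all DMSO libraries (log2 0.30, SE 0.21, 95% interval -0.21 to 0.81, adjusted p = 0.427). Without replicate 6 its difference was 0.06. MIR4435-2HG overlaps BCL2L11 on the opposite strand with counts equal to 1378% of its own; the kit keeps strand, but the strand setting of the counting is not given in the sources used here, so BCL2L11 levels are uncertain.

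BBC3 encodes PUMA, a BH3-only protein that binds all the survival members. It had 13.8, 14.0 and 9.42 CPM in DMSO and 18.8, 15.5 and 12.3 CPM in HC278, and the groups overlapped (log2 0.32, SE 0.23, 95% interval -0.23 to 0.87, adjusted p = 0.434). Within each group the library that stood apart along gene length was its lowest. Without DMSO replicate 3 the difference was 0.15, without HC278 replicate 1 it was 0.16, and without HC278 replicate 6 it was 0.46, none of which passed.

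PMAIP1 encodes NOXA, which binds mainly MCL1. It had 12.6, 12.7 and 15.5 CPM in DMSO against 7.64, 10.8 and 10.5 CPM in HC278. All HC278 libraries were below all DMSO libraries, as in 17.5% of tested genes, and the difference did not pass (log2 -0.49, SE 0.18, 95% interval -0.93 to -0.05, adjusted p = 0.147). Without HC278 replicate 6 it passed as lower (log2 -0.56, adjusted p = 0.0495), in a fit where 20.7% of all genes did.

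Among the survival genes, BCL2, the founding member of the family, also had all HC278 libraries below all DMSO libraries. It had 4.60, 4.98 and 4.96 CPM in DMSO and 3.12, 3.71 and 3.42 CPM in HC278 (log2 -0.50, SE 0.15, 95% interval -0.86 to -0.15, adjusted p = 0.0838). The call depended on the method: DESeq2 gave an adjusted p of 0.0411 with 9.39% of all genes lower, limma-voom 0.0698, edgeR without HC278 replicate 6 0.0340, and edgeR without both DMSO replicate 3 and HC278 replicate 6 0.0496, a fit that called 20.9% of all genes lower. In all it passed in 4 of 15 other settings. The smallest adjusted p, 0.0198, came from the edgeR fit with replicate number as a block, which called 27.2% of all genes lower. The log2 fold change of BCL2 stayed between -0.57 and -0.45 over the 15 settings, and its low level, with 89 to 168 counts per library, limits the precision.

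MCL1, a short-lived survival protein, had 168, 180 and 199 CPM in DMSO and 176, 193 and 250 CPM in HC278 replicates 1, 2 and 6. Only HC278 replicate 6 was above the DMSO range, and the difference of 0.18 on the log2 scale (SE 0.17, 95% interval -0.22 to 0.58, adjusted p = 0.566) became 0.01 without it. BCL2L1, which encodes BCL-XL and its short pro-death splice form, had 166, 156 and 149 CPM in DMSO and 170, 160 and 111 CPM in HC278. Here HC278 replicate 6 was the lowest library of all, and the difference of -0.10 (SE 0.18, 95% interval -0.53 to 0.34, adjusted p = 0.791) became 0.07 without it. Gene counts do not separate the splice forms.

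BCL2L2, which encodes BCL-W, had 20.9, 20.9 and 22.0 CPM in DMSO and 15.5, 18.7 and 23.3 CPM in HC278, from below to above the DMSO range (log2 -0.15, SE 0.17, 95% interval -0.55 to 0.26, adjusted p = 0.641). Without HC278 replicate 6 it was at -0.32 (adjusted p = 0.0618). It is uncertain, because HOMEZ on the opposite strand has 46.5% of its counts and itself passed as higher (log2 0.70, adjusted p = 0.0151), PPP1R3E on the opposite strand has 21.3%, and the readthrough gene BCL2L2-PABPN1 on the same strand has 13.7%.

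The effector BAX had the widest spread of the 10 within the HC278 group, a log2 difference of -1.54 between replicates 6 and 1. It had 116, 108 and 84.6 CPM in DMSO and 161, 121 and 55.3 CPM in HC278 replicates 1, 2 and 6, so the HC278 libraries enclosed the DMSO range. The difference was 0.13 (SE 0.38, adjusted p = 0.875), with the widest interval of the 9 genes that did not pass, -0.79 to 1.04. It was 0.45 without HC278 replicate 6 (adjusted p = 0.0757), -0.23 without HC278 replicate 1 and 0.02 with the length trend taken out. BAK1, the other pore-forming effector of the 10, had 25.9, 27.0 and 22.7 CPM in DMSO and 26.5, 26.5 and 20.7 CPM in HC278. Its groups overlapped (log2 -0.04, SE 0.15, 95% interval -0.39 to 0.31, adjusted p = 0.905). DMSO replicate 3 and HC278 replicate 6 were the lowest of their groups for BAX, BBC3, BAK1 and BCL2L1. The gene models of these are 0.592, 0.578, 0.506 and 0.758 times as long as that of MCL1. PMAIP1, at 0.511 times that length, did not follow this order. For MCL1, BCL2L2 (0.958 times) and BCL2L11 (1.52 times) those libraries were the highest. BMF and BCL2, at 1.25 and 2.69 times, had DMSO replicate 2 as the highest DMSO library.

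**Figure D2:**
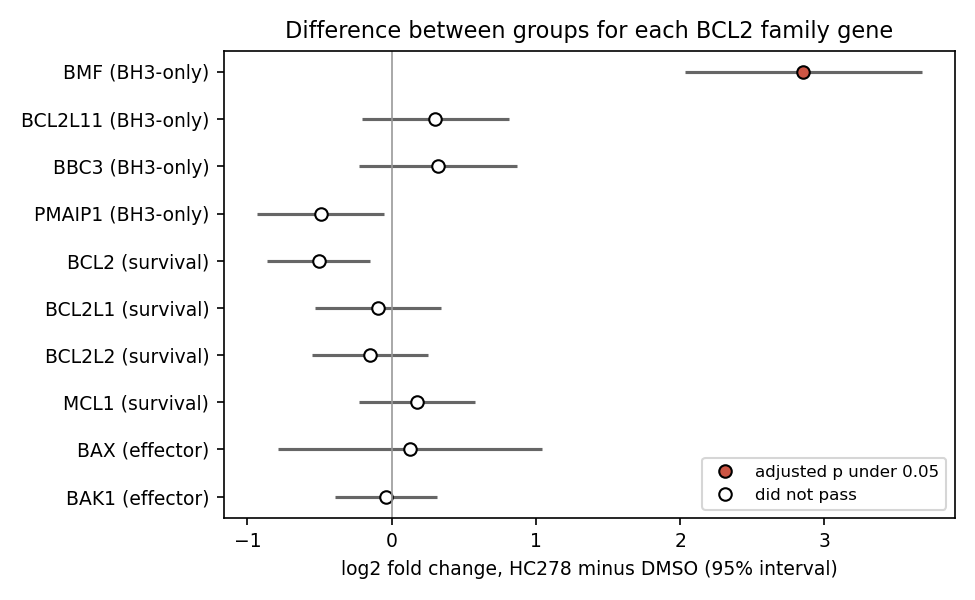
Log2 fold change of HC278 minus DMSO for the 10 genes (horizontal axis) with its 95% interval from the edgeR fit; the filled point passed at an adjusted p under 0.05. BMF is at 2.85, the other 9 lie between -0.50 and 0.32, and among those 9 only the intervals of PMAIP1 and BCL2 leave out 0.

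None of the 10 passed as lower with edgeR, where 2 had an unadjusted p under 0.05 in that direction, PMAIP1 and BCL2, as did 12.8% of all tested genes; DESeq2 called 1 lower and limma-voom 0. All 3 tools called 1 of the 10 higher.

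Levels were compared between genes per length, with the deposited TPM. In DMSO the order was BCL2L1 (152 ± 4.90 TPM), MCL1 (135 ± 21.3), BAX (127 ± 11.5), BAK1 (36.4 ± 1.40), PMAIP1 (19.6 ± 3.96), BCL2L2 (16.3 ± 1.71), BBC3 (15.6 ± 2.31), BCL2L11 (2.91 ± 0.428), BCL2 (1.32 ± 0.141) and BMF (0.191 ± 0.0167; SD, n = 3). MCL1 did not differ from BCL2L1 or BAX beyond their spread, nor did BCL2L2 from PMAIP1 or BBC3, and the steps from BAX to BAK1, from BAK1 to PMAIP1, from BBC3 to BCL2L11, from BCL2L11 to BCL2 and from BCL2 to BMF were larger than the spread. Under HC278 BMF reached 1.42 ± 0.859 TPM beside 0.905 ± 0.248 TPM of BCL2: it was above BCL2 in all 3 HC278 libraries and below it in all 3 DMSO libraries. For 3 of the 10 genes the overlap of the groups depended on the unit. BCL2L1 had 152, 147 and 156 TPM in DMSO and 128, 136 and 134 TPM in HC278, and BBC3 16.6, 17.30 and 13.0 TPM in DMSO and 18.7, 17.32 and 19.4 TPM in HC278, both with no overlap, whereas their CPM values overlapped. PMAIP1 had 17.1, 17.6 and 24.2 TPM in DMSO and 8.57, 13.7 and 18.8 TPM in HC278, which overlapped, whereas its CPM values did not. In TPM, 14.6% of tested genes had all HC278 libraries above all DMSO libraries and 14.5% had all below.

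**Figure D3:**
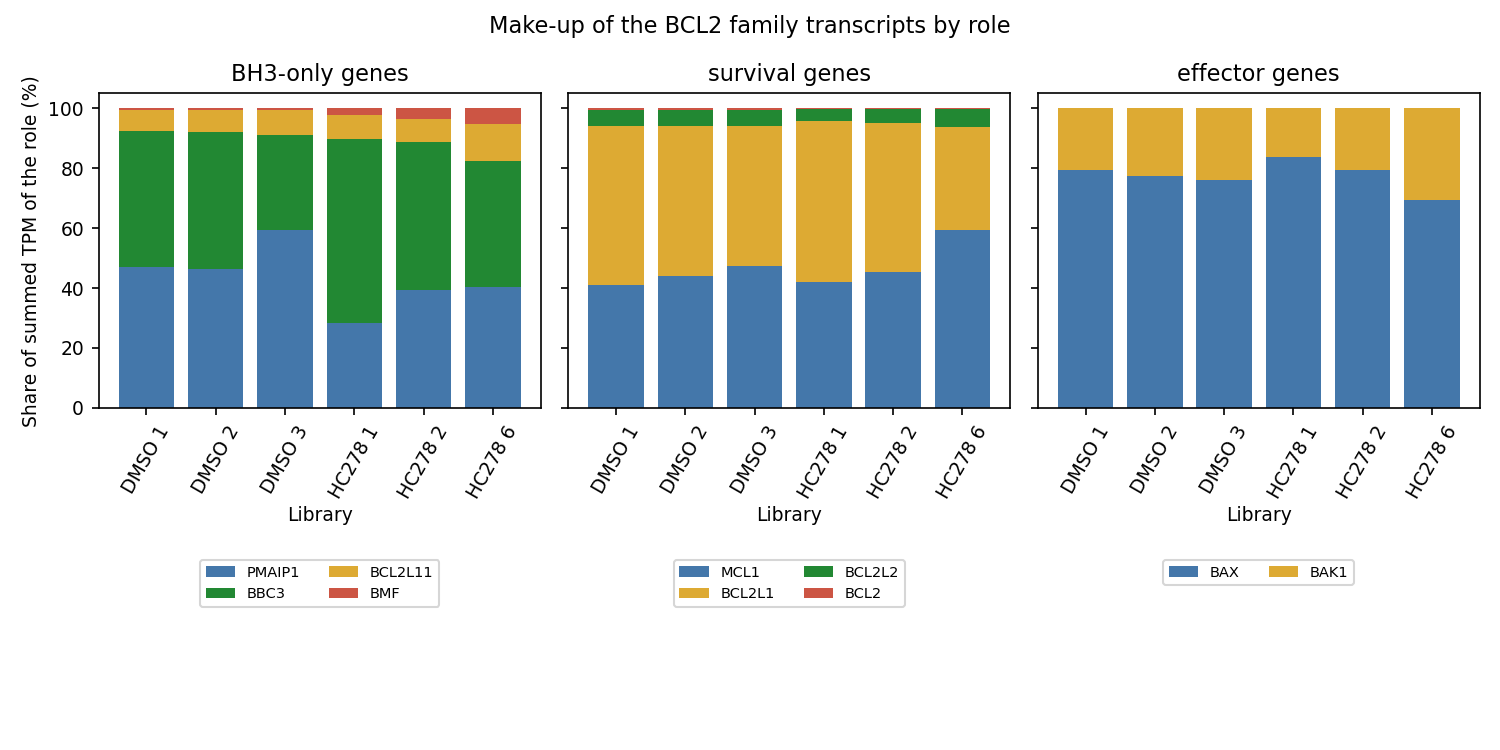
Share of each gene in the summed TPM of the studied genes of its role (vertical axis, percent) for every library, in BH3-only, survival and effector genes. BMF makes up 0.479% to 0.509% of the BH3-only sum in DMSO and 2.34% to 5.13% in HC278, and PMAIP1 takes a smaller share in every HC278 library than in any DMSO library.

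The make-up of each role is a description with no test and counts only the 10 members. Of their BH3-only transcripts, PMAIP1 made up 46.5% to 59.4% in DMSO and 28.3% to 40.5% in HC278. BBC3 made up 31.8% to 45.6% and 41.9% to 61.6%. BAD, BID and HRK, BH3-only relatives outside the 10, had means of 88.3, 28.4 and 7.96 TPM in DMSO. In HC278 they had 97.6, 31.7 and 8.82 TPM, and they are not in these shares. BMF, despite its fold change, stayed a small part, at most 5.13%. MCL1 and BCL2L1 together carried most of the survival transcripts, with BCL2L1 at 46.8% to 53.3% in DMSO and 34.7% to 53.7% in HC278, and BCL2 at 0.416% to 0.452% against 0.278% to 0.325%. BAX was 76.1% to 79.3% of the summed BAX and BAK1 in DMSO and 69.6% to 83.9% in HC278. BOK, an effector relative outside the 10, is not in that sum. It had 111 ± 6.09 TPM in DMSO and 74.6 ± 3.86 TPM in HC278 (SD, n = 3). Its difference on counts did not pass (edgeR adjusted p = 0.262).

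For the members studied here, the sums by role were close between groups. BAD, BID and HRK are not in the BH3-only sums below, and BOK is not in the effector sums. In DMSO, BAD alone averaged 88.3 TPM, against 38.4 TPM for the BH3-only sum. BOK averaged 111 TPM in DMSO and 74.6 TPM in HC278. Sums that include these relatives were not computed, so the values below do not describe whole roles. The BH3-only sum was 12.8%, 13.0% and 12.2% of the survival sum in the 3 DMSO libraries and 12.7%, 12.7% and 12.03% with HC278 (replicates 1, 2 and 6). In TPM the survival genes summed to 304 ± 26.7 in DMSO and 300 ± 76.5 in HC278. Over the TMM-scaled library size and per length in units of the MCL1 length, the same sums were 414 ± 5.53 and 421 ± 3.84 CPM, with less spread between libraries and overlapping groups. The effector sums had more spread on that scale, with 224 ± 31.5 and 238 ± 96.2 CPM against 163 ± 11.8 and 158 ± 32.3 TPM, and the groups overlapped in both units.

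By likeness of pattern over the 6 libraries, the genes closest to BMF were SARAF, TNFRSF9, FAXDC2, SMIM14 and RHBDF2, with Pearson correlations of log2 CPM between 0.997 and 0.999. These points are only 6 libraries in 2 groups that share depth and library effects, so the correlations are a description. The genes were chosen for following BMF, which differs between the groups. Their own differences and adjusted p-values are therefore no independent support. TNFRSF9, a co-stimulatory receptor, was up from 6.98 ± 0.224 to 13.2 ± 1.55 CPM (adjusted p = 0.013) and RHBDF2, which helps the protease ADAM17 to mature, from 54.6 ± 0.635 to 85.9 ± 10.3 CPM (adjusted p = 0.0249). SMIM14 rose by 1.31 on the log2 scale and FAXDC2 by 1.74, the latter uncertain, since CNOT8 on the other strand shares its position and has 373% of its counts. SARAF, a brake on calcium entry, had 112 ± 0.171 and 126 ± 2.56 CPM and did not pass (adjusted p = 0.309).

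Around the family, 62 of 73 genes in 6 lists of the cell death pathways were tested, and 3 passed as higher and 4 as lower, a share near the 10.8% of all tested genes that passed. An unadjusted p under 0.05 was found for 19 of the 62 and for 26.5% of all tested genes. Among 14 genes of the apoptosome and caspases, 1 rose and 1 fell. CASP10, an initiator caspase of death receptors, rose by 1.28 on the log2 scale (SE 0.21, adjusted p = 0.0173), with means of 0.707 ± 0.0703 and 1.72 ± 0.225 CPM. CASP2 fell by 0.67 (adjusted p = 0.0251), with 36.4 ± 3.86 CPM in DMSO and 22.8 ± 1.52 CPM in HC278. CASP9 of the apoptosome had 9.07 ± 0.545 and 12.3 ± 1.26 CPM and did not pass (adjusted p = 0.089), nor did APAF1 or CYCS, at -0.30 and -0.39 on the log2 scale. DFFA, which holds the apoptotic DNase inactive, was at -0.28 (adjusted p = 0.173), and PEX14 on the other strand at the same place has 37.0% of its counts.

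Of 9 tested death receptor genes, 1 rose and 1 fell, where 5.4% of all tested genes passed as higher and 5.38% as lower. TNFRSF1A, the main receptor of TNF, had 171 ± 11.5 CPM in DMSO and rose to 283 ± 44.4 CPM in HC278 (log2 0.72, SE 0.15, adjusted p = 0.0344). TNFRSF10D, a decoy receptor of TRAIL, had 73.2 ± 7.71 CPM in DMSO and fell to 49.5 ± 0.640 CPM (log2 -0.56, SE 0.12, adjusted p = 0.0319). FAS had 41.7 ± 4.13 and 27.4 ± 6.25 CPM (adjusted p = 0.101), and ACTA2, on the other strand at the same place, has 232% of its counts; the adaptor TRADD was at 0.67 on the log2 scale (adjusted p = 0.206). The ligands FASLG and TNFSF10 were too low to be tested.

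Of 14 tested transcription factors known to act on family genes, FOXO4 rose and E2F1 and MYC fell. Of all tested genes 5.4% passed as higher and 5.38% as lower. An unadjusted p under 0.05 was found for 7 of the 14 and for 26.5% of all tested genes. DESeq2 called 1 of the 14 higher and 4 lower, where it called 8.8% and 9.39% of all genes. FOXO4 had 5.29 ± 0.797 CPM in DMSO and 10.3 ± 1.59 CPM in HC278 (log2 0.96, SE 0.18, adjusted p = 0.0261). E2F1 had 45.6 ± 5.11 and 16.2 ± 6.80 CPM (log2 -1.50, SE 0.34, adjusted p = 0.0435), and MYC 122 ± 2.80 and 69.1 ± 6.49 CPM (log2 -0.82, adjusted p = 0.0109). JUN was at -0.44 and did not pass (adjusted p = 0.066).

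In the remaining 3 lists edgeR called no gene, where it called 10.8% of all tested genes. For comparison, 26.5% of all tested genes had an unadjusted p under 0.05. DESeq2 called 18.2% of all genes, 9.39% as lower, and limma-voom 10.9%. Of 8 tested other BCL2 relatives, 2 had an unadjusted p under 0.05 and DESeq2 called 1 lower; BNIP3L and BCL2L13, both of the mitochondrial surface, were at -0.27 and 0.28 (adjusted p = 0.133 and 0.181), BNIP3 at -0.37 (adjusted p = 0.228) and BOK at -0.47 (adjusted p = 0.262). PNMA2, on the other strand over BNIP3L, has 134% of its counts. Of 6 tested inhibitor of apoptosis genes, 2 had an unadjusted p under 0.05 and DESeq2 and limma-voom called 0; BIRC5, which encodes survivin and serves in mitosis too, had 169, 160 and 140 CPM in DMSO and 122, 101 and 50.4 CPM in HC278 (log2 -0.78, SE 0.32, adjusted p = 0.184). NAIP was at 1.10 (adjusted p = 0.188), BIRC3 at 0.84 (adjusted p = 0.224) and XIAP at 0.28 (adjusted p = 0.522). Of 11 tested binding partners and turnover factors, 0 had an unadjusted p under 0.05 and DESeq2 and limma-voom called 0; they included MARCHF5 at -0.23, VDAC1 at -0.24, HUWE1, a ligase of MCL1, at 0.32, and DYNLL2, the light chain that BMF binds, at -0.18 on the log2 scale (adjusted p = 0.228, 0.355, 0.566 and 0.368). List medians ran from -0.08 to 0.25, against 0.05 for all tested genes.

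**Figure D4:**
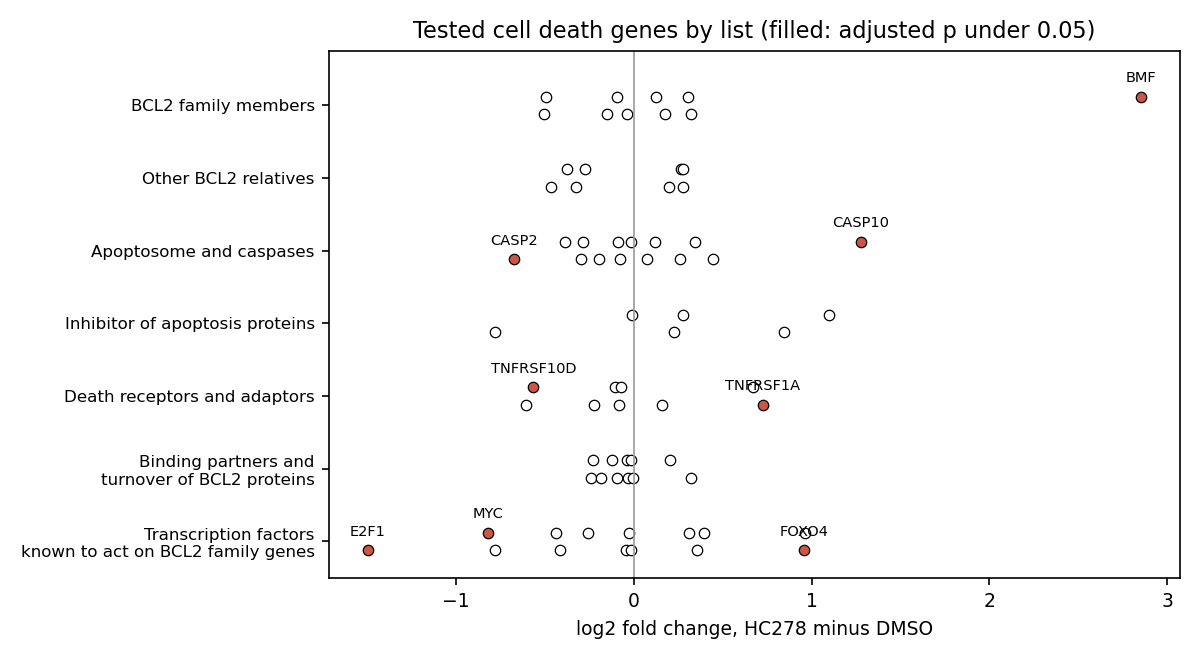
Log2 fold change of HC278 minus DMSO (horizontal axis) for each tested gene of the BCL2 family and of the 6 cell death lists, 1 point per gene, filled where the adjusted p was under 0.05. BMF at 2.85 is the farthest point from 0, and the filled points of the other lists lie between -1.50 and 1.28.

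The calls in these lists depended on single libraries, as did those over all genes. With edgeR, the tool run on these subsets, 0 genes of the 6 lists passed without DMSO replicate 1, 2 or 3 or without HC278 replicate 2, in fits where 1.03%, 0%, 1.54% and 1.59% of all genes passed. In those fits 10, 11, 9 and 10 genes of the lists had an unadjusted p under 0.05, as did 18.7%, 17.9%, 18.1% and 19.4% of all genes. Without HC278 replicate 1, 0 were higher and 1 lower where 5.15% of all genes passed, and 20 had an unadjusted p under 0.05, as did 23.1% of all genes. Without HC278 replicate 6, 10 were higher and 13 lower, in a fit where 40.6% of all genes passed.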

How the data were processed

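The members and gene lists were chosen with earlier results of these data known. The authors deposited 1 table with a raw count per gene and library, and TPM and RPKM columns that the authors computed. A last column, which the file headers call CPM, is a signal scaled by the authors to an adjusted library size. Per the labels' protocols, Trizol RNA went into Illumina's stranded mRNA kit. The submitters' processing notes name hg38. The aligner, counter, strand setting and annotation: not given in the sources used here.

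The test on counts was that of edgeR 4.0.16 under R 4.3.3 (TMM, filterByExpr with a minimum count of 10, glmQLFit, glmQLFTest, Benjamini-Hochberg over 15510 genes, threshold 0.05). SE is the log2 fold change over the square root of F. No set test was run. Relative gene length is count over TPM. Alternatives were other scalings and filters, DESeq2 1.42.0, limma-voom (limma 3.58.1), the replicate block, a loess trend on length (span 0.5) and left-out libraries. Intervals on counts cover counting error only. Named genes were all 10 members, all called genes and up to 4 genes of smallest adjusted p per list (CYCS, APAF1 and the untested ligands were added after their values were seen), and the 5 genes most like a called member with a mean of at least 1 CPM (log2 CPM, prior count 2). RPKM and the scaled signal were not tested. Protein sequences were not used here, and some genes of the lists are not reported here and were left out of the lists' counts.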

Additional observations from a re-analysis of the deposited data

How the results depend on the processing

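Over the 10 family genes, 1 higher and 0 lower held with DESeq2 size factors, library size alone, limma-voom, both other filters and the length trend taken out. DESeq2 gave 1 lower, as did leaving out DMSO replicate 3 and HC278 replicate 6 together, and the replicate block 3 higher and 3 lower. In the block the 3 higher were BMF, BBC3 and BAX, and the 3 lower PMAIP1, BCL2 and BCL2L2. With single libraries left out, 0 to 1 were higher and 0 to 2 lower. Over the other cell death lists (3 higher and 4 lower), library size alone gave 2 lower, DESeq2 8 lower, the length trend taken out 7 lower, the replicate block 14 higher and 20 lower, and both libraries left out together 11 higher and 18 lower; with single libraries left out, 0 to 10 were higher and 0 to 13 lower. Over all genes, library size alone called 4.19% lower, DESeq2 9.39% and the length trend taken out 9.2%. The replicate block called 25.5% of all genes higher and 27.2% lower, and both libraries left out together 19.5% and 20.9%. Single libraries left out gave 0% to 19.8% higher and 0% to 20.7% lower. The causes were not tested.

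Only replicate numbers 1 and 2 occur in both groups, and no label ties them to a shared culture. Their deviations correlated at 0.517 and 0.183, which with 2 pairs does not settle a pairing. With DMSO replicate 3 and HC278 replicate 6 each alone in a block, the replicate block takes its differences from replicates 1 and 2 alone. It is therefore nearly the same contrast as leaving those 2 libraries out together, not a separate check. The replicate block leaves 1 residual degree of freedom and called 8172 of 15510 genes (52.7%), against 1672 (10.8%) without it; BMF was at 2.55 in it.

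Directions turned for 5 genes that did not pass the test as reported. BCL2L1 was at 0.0326 with the replicate block and at 0.0325 without both libraries, over -0.218 to 0.0653 with single libraries left out. BAK1 was at 0.0011 and 0.00075 in those settings, over -0.113 to 0.0672. BAX ranged from -0.227 to 0.450 with single libraries left out, and was at -0.0013 without DMSO replicate 3. With single libraries left out XIAP ranged from -0.0124 to 0.428 and HUWE1 from -0.0810 to 0.485, both below 0 without HC278 replicate 6. Of 510 single-gene values, 410 kept direction and side of the threshold, 42 lost a call, 47 gained one and 11 turned. For the BH3-only, effector and survival genes of the 10, the ratio of HC278 to DMSO sums was 0.969, 0.970 and 0.986 in TPM. Per length over the TMM-scaled library size it was 1.005, 1.07 and 1.02, with overlapping groups in each. Depth limits BMF, at 10 or 11 counts per DMSO library, and NAIP, at 8 to 14 in DMSO and 13 to 32 in HC278.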
